A study of Mus musculus with 4 samples.

Results

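The genes of the proteasome were examined for phosphorylated CREB at their promoters and in the surrounding DNA. They were taken as every protein-coding gene of the mm9 annotation whose symbol is Psma, Psmb, Psmc, Psmd, Psme or Psmg plus a number, which gave 47 of 22225 genes. The libraries are chromatin immunoprecipitations from MC3T3-E1, a mouse pre-osteoblast line, made with an antibody against CREB carrying the serine phosphate that protein kinase A adds. Cells had received 100 nM forskolin, which activates adenylyl cyclase and raises cAMP, for 1 h (2 libraries), or DMSO, its vehicle, for the same time (2 libraries). All libraries come from the 1 cell line and are called biological replicates in the labels, so the spread given here is that between cultures of this line as labelled.

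The proteasome degrades proteins tagged with ubiquitin. Its barrel-shaped core, the 20S particle, has outer rings of alpha subunits (Psma) and inner rings of beta subunits (Psmb), a few of which carry the proteolytic sites. The 19S cap binds and unfolds substrates with a ring of ATPases (Psmc) and a set of other subunits (Psmd), while chaperones (Psmg and some Psmd) help assembly and Psme proteins are alternative caps. CREB binds the cAMP response element (CRE), and its phosphorylation recruits coactivators. In bone cells parathyroid hormone acts largely through cAMP, and proteasome activity is known to affect osteoblast differentiation.

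The peak lists held 25566 and 19371 peaks in the forskolin libraries, against 14686 and 10180 in the vehicle libraries. Peaks that shared at least 1 bp were merged into 28335 regions, of which 8930 had a peak in all 4 libraries, 5187 in both forskolin libraries alone (forskolin-only) and 125 in both vehicle libraries alone (vehicle-only). The lists give a score per peak but no read totals, so sequencing depth is unknown, and a missing peak is not an absent signal. Scores were used as ranks. The rank of a region in a library is its percentile, from 0 to 100, among the 8930 regions that all 4 libraries share, so that the same regions are ranked in each. Of markers of the labelled cell type, 8 of 8 osteoblast genes had a region within 10 kb, while 1 of 4 adipocyte, 2 of 4 chondrocyte, 0 of 3 muscle and 1 of 3 haematopoietic genes did. In single libraries, 54.2% and 49.2% of all genes had a peak within 10 kb in forskolin, against 46.7% and 39.7% in vehicle. The marker counts are of merged regions, so these single-library shares are not a like comparison. Occupancy near a gene does not measure its expression.

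Sequences are shown for the promoters on which the results turn, with the CRE-like site of each in capitals. These are the 2 members with a full CRE, the 3 highest-ranked members without one, and the other 4 with the shorter form TGACGT within 100 bp of the region's centre. All run 5′ to 3′ on the gene's own strand in mm9 (NCBIM37) and stop at any annotated exon, except Psmb9 and Psma5, whose sites lie in an annotated exon and are shown with short flanks.
Psmb2, chr4:126354811-126354873, plus strand: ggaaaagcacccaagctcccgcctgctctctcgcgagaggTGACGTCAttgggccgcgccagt
Psmb8, chr17:34334566-34334653, plus strand: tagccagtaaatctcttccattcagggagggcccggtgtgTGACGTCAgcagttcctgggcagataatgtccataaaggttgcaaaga
Psmd3, chr11:98543528-98543615, plus strand: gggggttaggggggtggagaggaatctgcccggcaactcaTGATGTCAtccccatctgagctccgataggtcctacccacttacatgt
Psme3, chr11:101177218-101177305, plus strand: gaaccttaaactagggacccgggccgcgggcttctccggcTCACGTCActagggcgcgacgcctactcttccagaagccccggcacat
Psmb9, chr17:34324404-34324433, minus strand: gcaggaccctcTGTCGTCAcctgtctctgg
Psmb5, chr14:55236852-55236919, minus strand: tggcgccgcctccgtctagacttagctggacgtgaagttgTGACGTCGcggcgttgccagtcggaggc
Psmd5, chr2:34726825-34726912, minus strand: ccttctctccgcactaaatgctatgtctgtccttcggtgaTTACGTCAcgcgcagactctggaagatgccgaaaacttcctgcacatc
Psma5, chr3:108059781-108059810, plus strand: gctggcgagacTTACGTCAcgattccgaca
Psma1, chr7:121419743-121419830, minus strand: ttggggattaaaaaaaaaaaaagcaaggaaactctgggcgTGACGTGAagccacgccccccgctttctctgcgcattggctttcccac

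Phospho-CREB was called at most proteasome promoters, and it was called there under vehicle as well as under forskolin. A region of any kind lay within 1 kb of a transcription start site (TSS) of 43 of the 47 genes (91.5%), against 44.5% of all genes. A region with a peak in all 4 libraries lay there for 37 (78.7%), against 30.4% of all genes. By library, 43 and 42 members had a peak within 1 kb in the forskolin libraries, against 43 and 39 in the vehicle libraries. The shares of all genes were 43.3% and 39.2% in forskolin libraries, against 38.6% and 32.4% in vehicle libraries. The means over members were 42.5 ± 0.71 and 41 ± 2.83 (SD, n = 2 each; two-sided exact permutation test, p = 1.000, where 0.33 is the smallest value that 2 against 2 allows). The direction of that small difference turned to -0.5 without vehicle replicate 2. It also turned when each list was trimmed to its 10180 highest scores, which gave 34 and 34 members in forskolin and 39 and 39 in vehicle libraries (p = 0.33, exact permutation test). The same trimming left 27% and 27.2% of all genes with a peak in forskolin, against 32.5% and 32.4% in vehicle libraries. In the trimmed lists 30 members (63.8%) kept a region of all 4 libraries within 1 kb, against 22.4% of all genes.

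Proteasome genes tend to have CpG-rich starts, which many promoters with phospho-CREB share. Such a start, defined here as at least 50% G and C and an observed-to-expected CpG ratio of at least 0.6 within 250 bp, was present in 41 members (87.2%), against 47.8% of all genes. Among genes with such a start, a region shared by all 4 libraries lay within 1 kb in 35 of 41 members (85.4%), against 53.7% of all genes. This comparison was chosen after the values had been seen. The members' regions lay close to the start, with 28 of 37 (75.7%) centred within 100 bp of a TSS, against 59.5% of all genes with such a region. The median distance was 43 bp for members and 74 bp for all genes. In 7 of 37 (18.9%), against 26.5% of all genes, the region also lay within 1 kb of the TSS of another gene. Those pairs are Psma7 with Ss18l1, Psmb9 with Tap1, Psmc2 with Dnajc2, Psmc5 with Ftsj3, Psmd13 with Sirt3, Psme2 with Rnf31, and Psmg2 with Cep76, and there the peak cannot be assigned to either gene.

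**Figure D1:**
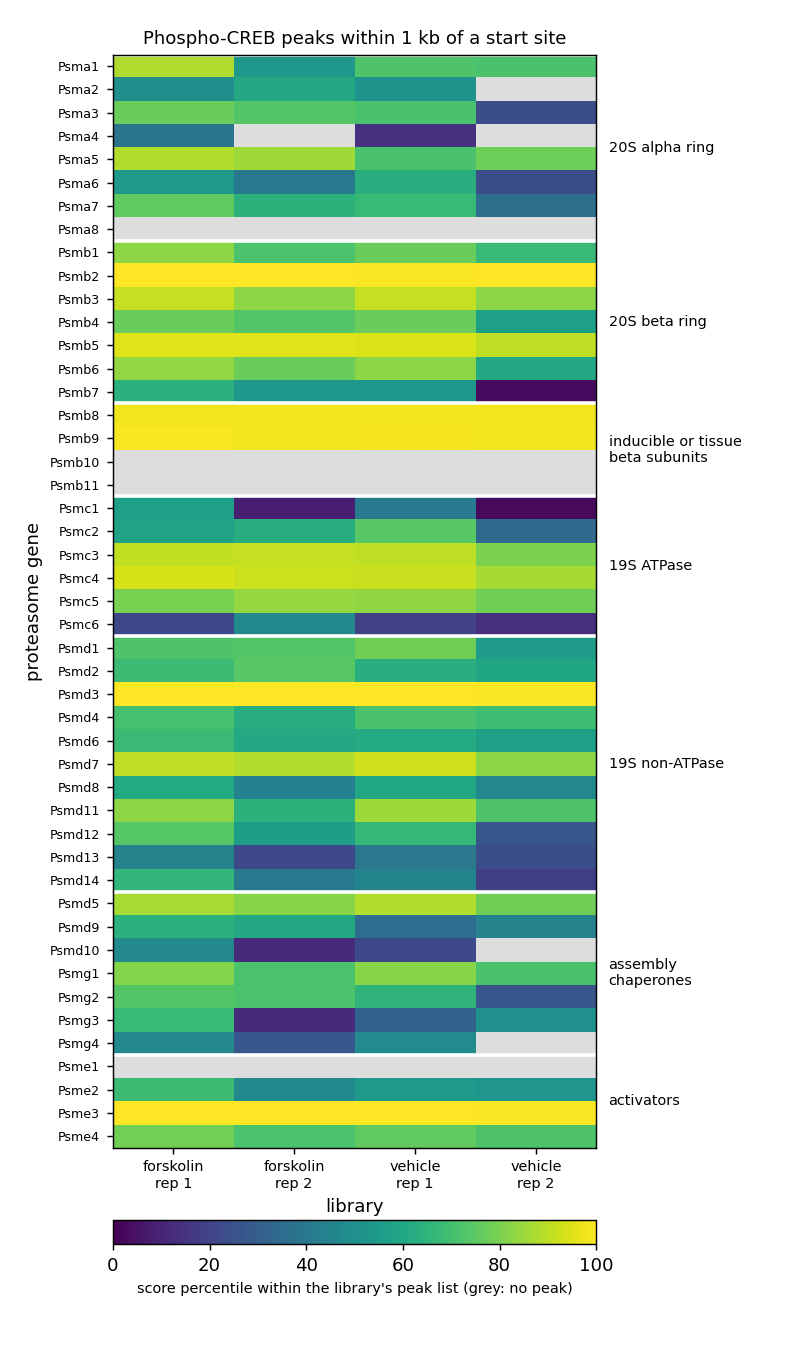
Score percentile of the highest peak within 1 kb of a TSS of each proteasome gene (rows, by role) within the peak list of each library (columns, 2 forskolin then 2 vehicle); grey marks no peak. A total of 39 genes have a peak in every library and 4 have none in any; list lengths differ, so colours are not compared between columns.

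The 3 proteolytic subunits of the standard core differed widely in rank. Psmb5, the chymotrypsin-like subunit, ranked 87.2 and 90.4 in forskolin libraries, against 91.3 and 89.0 in vehicle libraries. Psmb6, the caspase-like subunit, ranked 62.6 and 60.1 in forskolin libraries, against 72.4 and 56.4 in vehicle libraries. Psmb7, the trypsin-like subunit, ranked 27.4 and 28.9 in forskolin libraries, against 31.1 and 2.9 in vehicle libraries. Their order was Psmb5, Psmb6, Psmb7 in each library, and for each gene the treatments overlapped.

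Interferon replaces these subunits with Psmb9, Psmb8 and Psmb10 to form the immunoproteasome, which makes peptides for presentation on MHC class I. Psmb8, the counterpart of Psmb5, ranked 94.4 and 96.2 in forskolin libraries, against 97.0 and 97.6 in vehicle libraries. Psmb9, the counterpart of Psmb6, ranked 97.4 and 96.6 in forskolin libraries, against 97.6 and 97.9 in vehicle libraries. Both ranked above their standard counterparts in all 4 libraries, and both are in the MHC region of chromosome 17, where Psmb9 shares its start with the peptide transporter gene Tap1. Psmb10, the counterpart of Psmb7, had no region within 1 kb. Its nearest region of all 4 libraries was centred 1223 bp downstream of its TSS in an intron, at list percentiles of 74.3 and 17.1 in forskolin and 62.5 and 63.6 in vehicle libraries. Psmb11, the subunit of the thymus cortex, had none within 1 kb either, and its nearest such region, 7240 bp upstream, is the one at the start of Psmb5.

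Among the structural beta subunits, Psmb2 stood highest, at 99.3 and 99.4 in forskolin libraries and 99.3 and 99.7 in vehicle libraries. Psmb3 ranked 79.0 and 68.6 in forskolin libraries, against 85.8 and 80.4 in vehicle libraries. Psmb1 and Psmb4 lay nearer the middle, between 50.4 and 63.8 in the 4 libraries. All 7 standard beta genes had a region of all 4 libraries, with a median rank of 62.9.

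The alpha subunits, which gate the core, had such a region in 5 of 8 genes, with a median rank of 44.7 and none above Psma5 at a mean of 68.8. Psma1 illustrates the error of a rank in the middle of the list, with 71.6 and 28.9 in forskolin libraries, against 56.8 and 68.1 in vehicle libraries. Psma6 ranked 15.2 and 17.5 in forskolin libraries, against 43.1 and 20.3 in vehicle libraries. The ranks of Psma3 and Psma7 lay between 17.5 and 54.9. Psma2 lacked a peak in vehicle replicate 2 alone, with list percentiles of 49.9 and 60.4 in forskolin libraries and 51.1 in vehicle replicate 1, and this region also lies within 1 kb of the start of Mrpl32. Psma4 had peaks in forskolin replicate 1 (38.3) and vehicle replicate 1 (14.4) and in neither other library, in a region also within 1 kb of the start of AY074887. Psma8, the alpha subunit of the testis, had no region within 1 kb.

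The ATPases of the 19S base had a region of all 4 libraries in 5 of 6 genes. Psmc4 and Psmc3 ranked highest, between 77.7 and 87.2 in every library. Psmc1 had the lowest mean rank of the 37 members (10.8), at 18.1 and 2.5 in forskolin libraries and 20.5 and 2.0 in vehicle libraries, so replicates of a treatment differed far more than the treatments did. Psmc2 ranked between 19.6 and 59.5. Psmc5 ranked 54.5 and 70.6 in forskolin libraries, against 73.4 and 75.6 in vehicle libraries. Psmc6 had a region 228 bp downstream of its TSS called in replicate 1 of each treatment, at list percentiles of 21.8 in forskolin and 19.3 in vehicle. A second region, 285 bp upstream, was called in replicate 2 of each, at 47.5 in forskolin and 13.3 in vehicle.

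The other 19S subunits included the highest member. Psmd3, a structural subunit of the lid, ranked 99.7 and 99.8 in forskolin libraries, against 99.6 and 99.6 in vehicle libraries. Psmd7, which pairs with the deubiquitinase Psmd14, followed at 77.1 and 78.1 in forskolin libraries and 88.1 and 80.4 in vehicle libraries. Psmd14 itself lacked a promoter region of all 4 libraries. Its region 150 bp downstream lacked a peak in forskolin replicate 2, with list percentiles of 33.6 in forskolin replicate 1 and 45.1 and 18.4 in vehicle libraries. Its region 936 bp downstream lacked one in vehicle replicate 2, with 66.2 and 40.3 in forskolin libraries and 21.9 in vehicle replicate 1. Psmd4, a ubiquitin receptor, ranked 38.7 and 39.1 in forskolin libraries, against 54.9 and 65.6 in vehicle libraries. The lid subunit Psmd11 ranked 60.2 and 41.5 in forskolin libraries, against 76.1 and 68.9 in vehicle libraries. Psmd8 ranked 23.8 and 20.5 in forskolin libraries, against 39.1 and 41.8 in vehicle libraries, and Psmd13 8.0 and 7.6 in forskolin libraries, against 19 and 20.3 in vehicle libraries. In these 4 genes, and in Psmd6 and Psmd7, both forskolin ranks lay below both vehicle ranks. In none of them did that hold when regions were ranked within the whole lists. There the mean differences, forskolin minus vehicle, were -3.44 in Psmd4, -5.20 in Psmd11, -0.37 in Psmd8 and 1.39 in Psmd13. They were 5.13 in Psmd6 and 1.95 in Psmd7. Psmd1, Psmd2, Psmd6 and Psmd12 lay between 22.8 and 65.3.

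Of the assembly chaperones, 5 of 7 had a region of all 4 libraries. Psmd5, which helps assemble the 19S base, ranked 68.9 and 67.7 in forskolin libraries, against 81.3 and 75.6 in vehicle libraries. Psmg1, which guides formation of the alpha ring, ranked 57.9 and 51.7 in forskolin libraries, against 71.5 and 68.1 in vehicle libraries. In both genes forskolin was lower without overlap, but in neither when regions were ranked within the whole lists, where the mean differences were 1.25 in Psmd5 and -0.17 in Psmg1. Psmg3 was among the lowest members, at 32.4 and 3.8 in forskolin libraries and 12.5 and 45.8 in vehicle libraries. Psmd9 and Psmg2 lay between 15.5 and 51.7. Psmd10 (gankyrin), which also binds the 19S ATPases, had list percentiles of 47.2 and 12.4 in forskolin libraries and 21.9 in vehicle replicate 1, with no peak in vehicle replicate 2, and its region is shared with the start of Atg4a. Psmg4 had 47.2 and 27.2 in forskolin libraries and 48.2 in vehicle replicate 1, and again no peak in vehicle replicate 2.

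The alternative caps were split. Psme3, the nuclear cap protein that promotes degradation without ubiquitin, ranked 99.6 and 99.3 in forskolin libraries and 99.6 and 99.3 in vehicle libraries. Psme1 and Psme2 form the interferon-inducible cap. Psme1 had no region within 1 kb, and the region of Psme2, shared with Rnf31, ranked 34.7 and 23.5 in forskolin libraries, against 32.4 and 47.6 in vehicle libraries. Psme4, the large cap known for its part in sperm formation and DNA repair, ranked 52.8 and 51.7 in forskolin libraries, against 61.1 and 68.9 in vehicle libraries. Psmb8 and Psmb9, also interferon-inducible, ranked far above Psme2 in all 4 libraries.

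**Figure D2:**
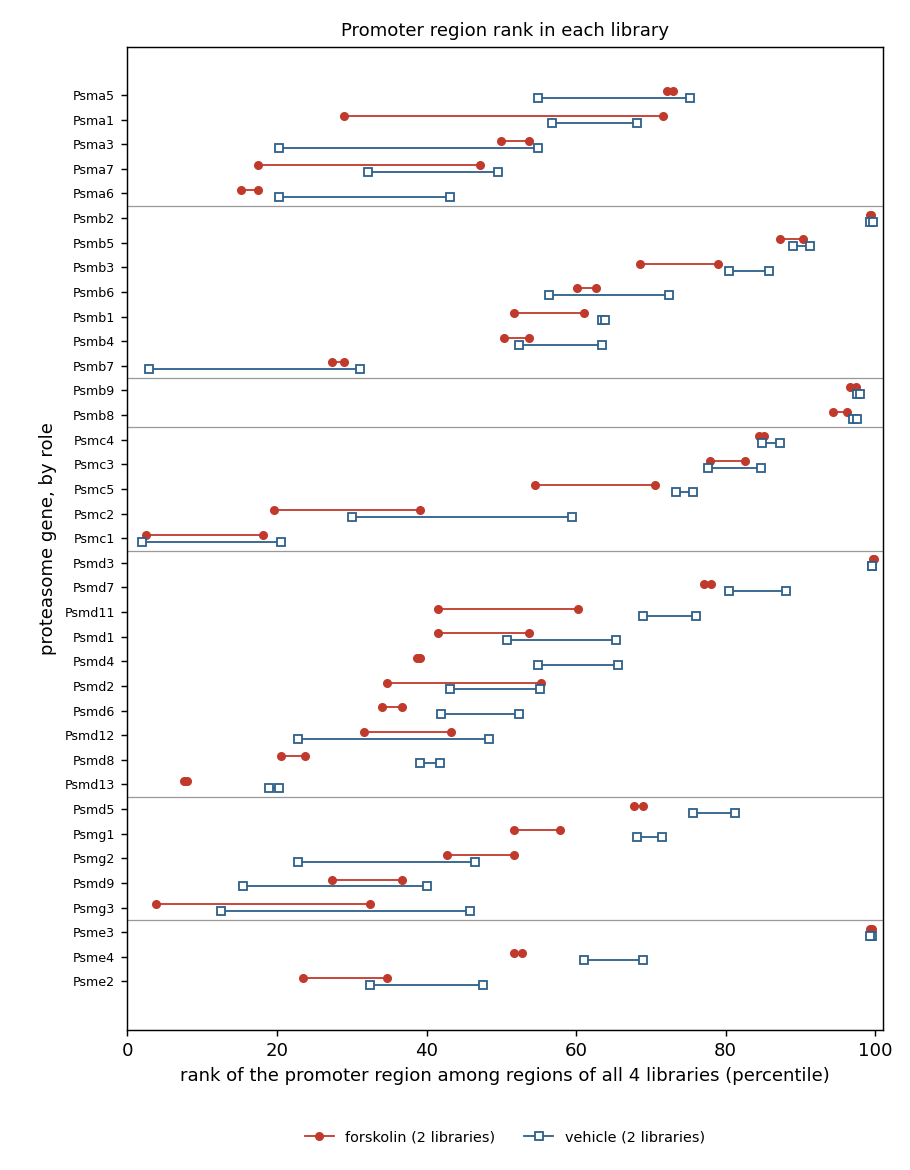
Rank (percentile among the 8930 regions of all 4 libraries, 0 to 100) of the promoter region of the 37 proteasome genes that have one, grouped by role in the order of the peak map and sorted by mean rank; filled circles joined by a line are the 2 forskolin libraries and open squares the 2 vehicle libraries. Psmd3, Psme3, Psmb2, Psmb9 and Psmb8 sit above 94 in every library, and replicates lie farther apart in the middle and low ranks.

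The highest proteasome promoters were near the top of the whole genome's list. Psmd3 (mean rank 99.7), Psme3 (99.5), Psmb2 (99.4), Psmb9 (97.4) and Psmb8 (96.3) lay in the top 5% of shared regions, which makes 5 of 37 members (13.5%), against 6.43% of all genes with such a region. The median mean rank was 56.3 over members and 56.4 over all genes.

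A full CRE, TGACGTCA, lay within 100 bp of the region's centre in Psmb2 and Psmb8 only, 2 of 37 members (5.41%), against 7.23% of all genes with such a region. TGACGT was present in 7 members (18.9%), against 20.6% of genes, and the CRE core TGACG, which both longer forms contain, in 19 members (51.4%), against 43.4% of genes. Searches covered both strands of the 201 bases around the centre. The site of Psmb2 is centred 19 bp upstream of its TSS and that of Psmb8 56 bp upstream.

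Sites that differ from the CRE by at most 1 base, a definition chosen after the values had been seen and one that includes the full CRE, were present in 15 members (40.5%), against 19.3% of genes. The 5 highest-ranked members all had one. Positions are counted from 1 at the 5′ end of TGACGTCA, on the gene's strand, with the CRE's base given first. The site was C4T in Psmd3, G2C in Psme3 and A3T in Psmb9, and Psmc4 and Psmc5 shared A3G. The TGACGT members had A8G in Psmb5, G2T in Psma5, C7G in Psma1, and both G2T and T1A in Psmd5. The remaining sites were T6C in Psma7, T6G in Psmb3, A3C in Psmb6 and G5T in Psmd1. Of the 16 sites, 11 lay within 50 bp of the region's centre, with a median offset of 25 bp. Members with such a site had a median rank of 78.5 (n = 15, from 36.6 to 99.7), and those without had 41.1 (n = 22, from 10.8 to 80.9). Over all genes the medians were 83.9 with a site (n = 1300) and 50.8 without (n = 5447), so the members show the split that promoters in general show. By form, the median rank of members was 97.9 with a full CRE (n = 2), 73.4 with TGACGT alone (n = 5), 62.6 with the core alone (n = 12) and 42.8 with none (n = 18). Over all genes the same order held, with 88.4 (n = 488), 81.9 (n = 900), 67.9 (n = 1540) and 44.4 (n = 3819).

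**Figure D3:**
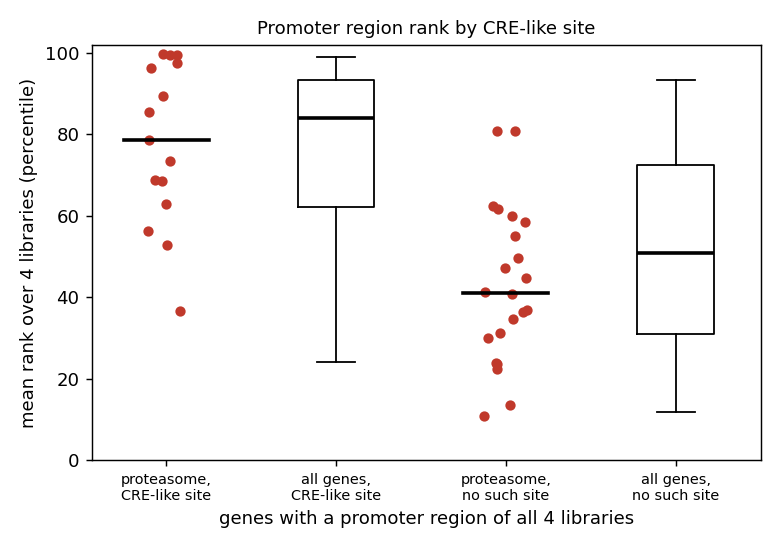
Mean rank over the 4 libraries (percentile, 0 to 100) of promoter regions with and without a CRE-like site (TGACGTCA with at most 1 base changed, within 100 bp of the centre). Points are proteasome genes with their median as a bar (78.5 with a site, 41.1 without), and boxes are all genes (median and quartiles, whiskers at the lowest and highest 5%; medians 83.9 and 50.8).

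Sites for other factors were counted in the same 201 bases. The AP-1 site TGAGTCA was found in 0 of 37 members, against 2.18% of genes. The antioxidant response element TGACNNNGC, the site of Nfe2l1, the factor known to drive proteasome genes when proteasome activity is low, was found in 5 (13.5%), against 12.7%: Psma3, Psmb2, Psmb5, Psmb6 and Psmc4. In Psmb5 the match covers its CRE-like site, so the same bases are counted under both. Common promoter elements were counted too, with CCAAT in 9 (24.3%), against 34.9% of genes, and the GC box GGGCGG in 14 (37.8%), against 51.8%. The ETS site CCGGAAG was found in 12 members (32.4%), against 21.4% of genes, and the YY1 site AAGATGGC in 4 (10.8%), against 6.33%. The site GCATGCGC of nuclear respiratory factor NRF1, which is not Nfe2l1, was found only in Psmg1 (2.7%), against 4.05% of genes. These counts were not tested.

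In the full lists of all 4 libraries, forskolin-only regions were not called at proteasome promoters. No member had a forskolin-only region within 1 kb, against 3.11% of all genes. Within 10 kb 1 member had one (2.13%), against 8.88% of genes: Psmb7, 8839 bp upstream in an intergenic stretch (chr2:38508291-38508601 in mm9), at list percentiles of 48.1 and 50.5. That region was lost when the lists were trimmed to equal length. It was also lost with the top 50% of each list, where Psmd9 had one instead, 79 bp downstream of its TSS. The count within 10 kb was 2 without forskolin replicate 1 or 2 and 6 without vehicle replicate 1. Those gained without vehicle replicate 1 included regions within 1 kb of the TSS of Psma2, Psmd10, Psmd14 and Psmg4. With a library left out the class is easier to meet, and the share of all genes was not counted there. No member had a vehicle-only region within 10 kb, against 0.414% of genes, or within 100 kb, against 2.07%. In the trimmed lists 7 members (14.9%) had a vehicle-only region within 10 kb, against 4.51% of genes. These were Psma3, Psma6, Psmc1, Psmc2, Psmc3, Psmd13 and Psmd14. Of these, Psma6, Psmc1, Psmc2 and Psmd13 had a promoter region of all 4 libraries in the full lists and lost it on trimming. Trimming cut the forskolin lists most and left that of vehicle replicate 2 whole. These calls therefore do not show a lack of signal under forskolin. In the full lists without forskolin replicate 1, 3 members had a vehicle-only region within 10 kb, and without forskolin replicate 2, 1 had. There too the class is easier to meet.

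Farther out, 16 members (34%) had a forskolin-only region within 100 kb, against 39.7% of all genes. These were 27 regions, of which 18 lay 50 kb or more from the TSS and 7 lay within 1 kb of another gene's TSS. None held a full CRE, 12 held the core and 5 the AP-1 site. Over all 5187 forskolin-only regions 3.59% held the full CRE, 38.6% the core and 21.8% the AP-1 site. The highest by the lower of their forskolin list percentiles lay 57502 bp downstream of the Psma7 TSS (71.3 and 78.3) and 57639 bp downstream of that of Psma6 (72.3 and 64.3). A tie followed, with 1 region 87274 bp upstream of Psmd5, at the start of Traf1 (82.3 and 58.2), and 1 region 62885 bp upstream of Psmd4 (66.2 and 58.2). In lists of equal length 7 members (14.9%) had a forskolin-only region within 100 kb, against 15.1% of genes. In the full lists the count was 31 without forskolin replicate 2 and 32 without vehicle replicate 1. With a library left out the class is easier to meet for any gene. The share of all genes was not counted there, so whether this rise is particular to the members is not known.

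**Figure D4:**
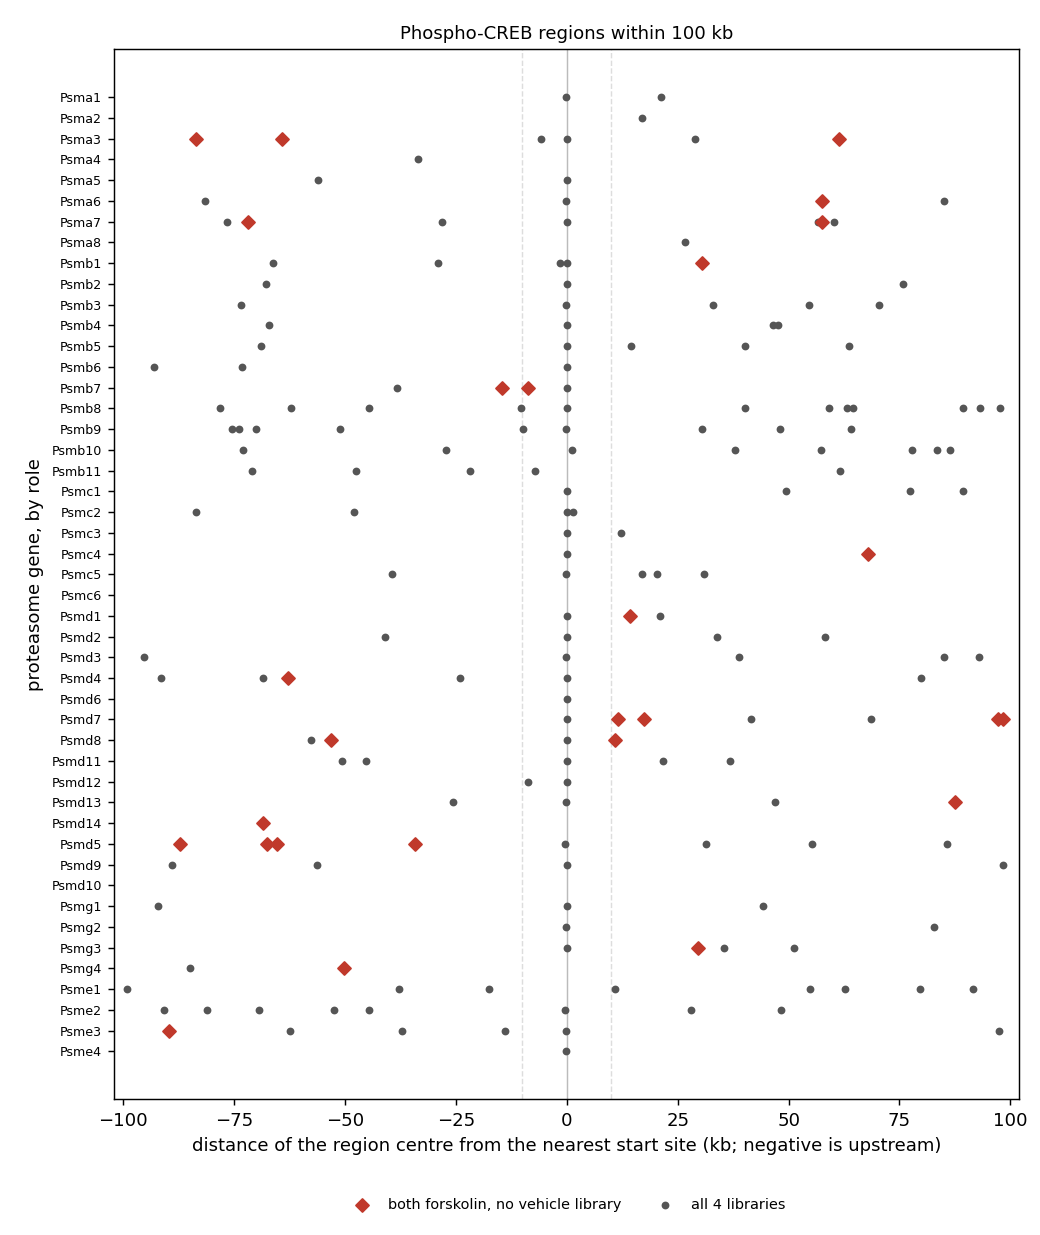
Distance in kb from the nearest TSS of each proteasome gene (rows, by role; negative is upstream) to the centre of each region within 100 kb: diamonds are forskolin-only regions and dots regions with a peak in all 4 libraries; dashed lines mark 10 kb. Dots line up at the TSS, while 26 of the 27 diamonds lie beyond 10 kb.

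Among the 37 shared promoter regions, ranks were on balance lower under forskolin, as they were at promoters in general, but higher when regions were ranked within the whole lists. The median rank was 51.8 in forskolin and 62.4 in vehicle libraries over members, and 53.5 and 61.0 over all genes. The median difference, forskolin minus vehicle, was -6.7 percentile points over members (from -21.7 to 14.2) and -3.8 over all genes. It was negative in 30 of 37 members (81.1%) and in 72.8% of genes. In 15 members (40.5%) both forskolin ranks lay below both vehicle ranks, against 38.1% of genes. In 1 member, Psmd3 (2.7%), both lay above, against 7.75% of genes, and there by 0.1 points. The largest such differences were -21.7 in Psmd11, -21.3 in Psmd4, -18.3 in Psmd8, -15.3 in Psma6 and -15.0 in Psmg1. A rank is relative to the other regions: over all shared regions the median difference was -3.8 within 1 kb of a TSS (n = 5984) and 4.8 farther away (n = 2946).

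The direction of this shift depends on what the regions are ranked among. Ranked within each whole list, the median difference of the members was 3.68 and that of all genes 3.80, both higher under forskolin. On that scale 10 members (27%) ranked higher in both forskolin libraries, against 36.9% of genes, and 0 lower, against 2.4%. The forskolin lists are longer and hold more peaks outside the shared regions. Leaving out single libraries moved the shared-region values as well. With a forskolin library left out, the median was -4.28 (replicate 1 omitted) or -3.01 (replicate 2). With a vehicle library left out, it was -2.90 (replicate 1 omitted) or -8.91 (replicate 2). The number of members lower in every forskolin library was 23 without forskolin replicate 2 and 29 without vehicle replicate 2. The number higher was 3 when either forskolin library was omitted, and 8 or 4 when vehicle replicate 1 or 2 was. With a library omitted, fewer ranks have to be in order. Both numbers then tend to rise for any genes, so they do not measure the influence of a library.

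**Figure D5:**
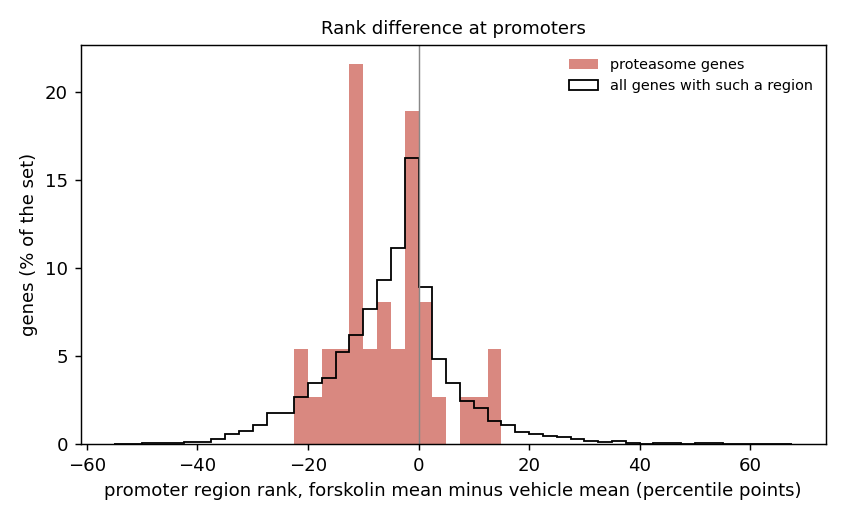
Difference in promoter region rank among the shared regions, forskolin mean minus vehicle mean in percentile points, as the share of genes per bin of the set: filled bars are the 37 proteasome genes and the outline all 6747 genes with such a region. Most of both sets lie below 0 (81.1% and 72.8%), whereas ranking within the whole lists turns the median to 3.68 and 3.80.

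Other genes of the pathway were counted from a list of proteins that assemble, regulate or feed the proteasome. Of 31 annotated genes, 29 had a region within 1 kb, against 44.5% of all genes, and 24 had one of all 4 libraries, against 30.4%. The 7 without were Nfe2l2, a regulator of antioxidant genes, and Ngly1 and Ddi2, which process Nfe2l1, with the Vcp cofactor Nploc4, the ubiquitin shuttle Ubqln2, the ubiquitin-activating enzyme Uba1, and AI314180. Of the 24, 9 ranked lower in both forskolin libraries than in both vehicle libraries and 1, the proteasome activator Zfand5, ranked higher, against 38.1% lower and 7.75% higher among all genes. Ranked within the whole lists, 0 of the 24 were lower, against 2.4% of all genes, and 7 higher, against 36.9%. Nfe2l1 itself ranked 92.0 and 90.9 in forskolin libraries, against 94.4 and 94.6 in vehicle libraries. Zfand2a, a stress-inducible proteasome-associated protein with a full CRE, ranked 99.8 and 99.9 in forskolin libraries and 99.9 and 99.9 in vehicle libraries.

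Forskolin-only regions within 10 kb were found at 3 of these 31 genes, a share near the 8.88% of all genes. Akirin2, which carries proteasomes into the nucleus, had one 736 bp downstream of its TSS, at list percentiles of 55.9 and 47.5. The region of Ddi2 lay 2137 bp downstream (57.8 and 40.3), and that of Uba1 7191 bp downstream (33.6 and 50.5).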

How the data were processed

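The authors' deposited peak lists, 1 per library and so not pooled, give positions and a score per peak whose scale is not stated. Bowtie, HOMER and build mm9 are named per the submitters' processing notes; settings of the peak calling and the input are not stated in the labels or lists. All peaks of a list have 1 width (311 and 303 bp in forskolin, 301 and 303 bp in vehicle). Scores served only as ranks within a library, ties taking the mean rank, because they are not counts and depth is unknown. Genes are GENCODE M1 protein-coding symbols on NCBIM37, and no region ran past a chromosome end. Distances run from region centre to the nearest TSS. The promoter region is the region of all 4 libraries within 1 kb with the highest mean rank.

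Members are counted beside all genes, without a set test. The rule named members lacking a shared promoter region or having a treatment-specific region within 10 kb, the 3 highest forskolin-only regions, members with a full CRE, the extremes of rank and rank difference, and the proteolytic subunits. Other members were named to account for all. Members, gene lists and rules were chosen with earlier results of these data known. Paaf1 of the pathway list is not in the annotation by that symbol. Class assignment was tested on simulated lists of isolated sites whose peaks overlap, which does not test close or offset peaks. Python 3.11.15, numpy 2.4.6, scipy 1.17.1, pysam 0.24.0 and matplotlib 3.10.9 were used.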

Additional observations from a re-analysis of the deposited data

How the results depend on the processing

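The 10 list-wide results were recomputed under 15 alternative settings, each only where the setting bears on the result. Of 111 such values 81 were scored as kept, 27 moved farther and 3 turned direction. Counts had to stay within 1.5 times the reported count, whichever members made them up. The median rank difference had to stay within the spread between libraries. The difference in members with a peak was scored by direction alone. It was 1.5 as reported, and 5 with the top 50% of each list and 3.5 without vehicle replicate 1 were scored as kept. Joining peaks within 500 bp gave a median rank difference, forskolin minus vehicle, of -4.24. Keeping the top 50% of each list left 24 members with a region of all 4 libraries within 1 kb. It gave 2 ranked higher and 9 lower under forskolin, and a median of -2.19. There 15 members had a forskolin-only region within 100 kb, scored as kept, but only 8 of them were among the reported 16. Within 10 kb the count of 1 was scored as kept with 0 shared, as Psmb7 was lost and Psmd9 gained. Equal list lengths gave 0 members with a forskolin-only region within 10 kb, 7 with a vehicle-only one, 7 with a forskolin-only region within 100 kb and a difference of -5 in members with a peak. Values for single members were scored against the spread of the members' median rank between libraries, 2.10 points. The replicate spread of each gene was not used, and it can be far wider. Of 184 such values 128 stayed within 2.10 points, 45 moved and 11 turned. Whole-list ranks gave 10 higher, 0 lower and a median of 3.68. On that scale the difference turned to 3.68 in Psma6, 5.22 in Psmb1, 0.25 in Psmb3, 0.00 in Psmb8, 0.38 in Psmb9, 1.09 in Psmc5, 1.25 in Psmd5, 5.13 in Psmd6, 1.95 in Psmd7, 1.39 in Psmd13 and 1.55 in Psme4. The cause was not tested.

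Leaving out each library in turn gave 1 to 6 members with a forskolin-only region within 10 kb, 0 to 3 with a vehicle-only one, 19 to 32 with a forskolin-only region within 100 kb, 3 to 8 ranked higher, 20 to 29 ranked lower, medians of -8.91 to -2.90, and differences in members with a peak of -0.5 to 3.5. A region called in every remaining library lay within 1 kb of 37 to 41 members. With a library left out, each of these classes and orders has fewer calls or ranks to meet, so their counts tend to rise. With the replicate number as a replicate block the difference in members with a peak was 1.5 (p = 1.000, exact permutation test). Same-numbered libraries' deviations correlated at 0.13 over 8930 regions, in 2 pairs, which does not establish a pairing. Unknown depth limits every missing peak.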
